A study of Mus musculus with 10 samples.

Results

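The mitochondrial genome of the mouse carries 37 annotated genes, and all of them were measured by RNA-seq in mouse embryonic stem cells (mESCs) with and without subunits of MiDAC, a histone deacetylase complex. The genes were taken as every row of the expression table whose name begins with mt-, which gave 37 of the 34591 genes listed: 13 coding genes, 2 rRNA genes and 22 tRNA genes. The cells were male C57/BL6 Bruce-4 mESCs in 2iL, a chemically defined medium with LIF and inhibitors of GSK3β and MEK that holds the cells in the naïve state. The 10 libraries fell into 5 lines with 2 libraries each: the wild type (WT), clones D2A7 and D1E6 without Dnttip1, and clones E2E8 and E2G7 without Elmsan1. Dnttip1 and Elmsan1 encode scaffold proteins of MiDAC, and the KO clones were made with CRISPR/Cas9 and carry indels that introduce a premature stop codon. Each KO line is 1 clone, so a change seen in 1 line cannot be told apart from a property of that clone. The study calls the libraries of a line biological replicates; whether they were separate cultures of that line is not given in the sources used here, and the p-values measure the spread between these libraries.

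Mitochondrial DNA is a small circle that is transcribed from both strands into long precursor RNAs. The tRNAs lie between most of the longer genes, and cutting them out releases the rRNAs and mRNAs. The coding genes specify subunits of the respiratory chain complexes I, III and IV and of the ATP synthase (complex V), which work together with many nuclear-encoded subunits. Naïve mESCs are known to use both glycolysis and mitochondrial respiration. The RNA polymerase POLRMT, with TFAM and TFB2M, transcribes the molecule in the cell's mitochondria, so all of its regulators are imported products of nuclear genes.

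Levels are given as FPKM (fragments per kilobase of exon, relative to all fragments of the library), divided by a library factor between 0.965 and 1.01 that sets the median gene equal across libraries; these are called scaled FPKM. Fold changes are log2 differences of scaled FPKM after adding 0.1. A gene was called when it changed at least 1.5-fold with an unadjusted p under 0.01, the rule the study used, and the Benjamini-Hochberg adjusted p of limma over all genes tested is given beside it. Each library held 31098269 to 86463773 fragments, with the WT libraries the shallowest. Recovering whole fragments from the FPKM values gave 301681 to 888550 fragments on the coding genes of a library, 252809 to 653056 on the rRNA genes and only 210 to 729 on the tRNA genes. The Dnttip1 transcript was at 8.45 and 8.35 scaled FPKM in WT, 4.57 and 4.56 in D2A7 and 2.58 and 2.60 in D1E6. The Elmsan1 transcript, listed as C130039O16Rik, was at 5.73 and 5.34 in WT, 4.89 and 5.13 in E2E8 and 4.63 and 4.75 in E2G7; with indels that stop translation, these levels check the labels only in part. The 10 stem cell markers summed to 2968 to 3999 scaled FPKM in every library, while the 7 fibroblast or feeder markers summed to at most 0.587. Dppa5a, at 1552 to 2294, led the stem cell sum, and single stem cell markers moved in both directions. Sox2 was at 194 and 179 in WT and 132 to 148 in the KO libraries, with Nanog, Klf4 and Esrrb also lower there. Zfp42 was at 67.4 and 69.3 in WT and 82.5 to 108 in the KO libraries, with Dppa5a also higher. Pou5f1, Tdgf1, Tfcp2l1 and Fgf4 overlapped between WT and KO. Nes, a neural progenitor marker, moved with the groups, at 4.14 and 4.19 scaled FPKM in WT and 5.95 to 12.9 in the KO libraries, while Pax6 was at most 0.0250 in every library. The part of these markers in the levels of the mitochondrial genes was not tested.

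The genes are packed so tightly that several share bases, and this bears on how a fragment can be assigned. The coding genes of the ATP synthase subunits, mt-Atp8 and mt-Atp6, overlap by 43 bases at chrM:7915-7981 (plus strand, NCBIM37), shown with the shared bases in capitals. The complex I genes mt-Nd4l and mt-Nd4 share 7 bases at chrM:10147-10193, which include the start codon of mt-Nd4. The 3′ ends of mt-Nd5 and mt-Nd6 share 14 bases at chrM:13537-13580, but these genes lie on opposite strands.

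mt-Atp8/mt-Atp6: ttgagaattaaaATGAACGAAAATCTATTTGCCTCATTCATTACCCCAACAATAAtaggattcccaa
mt-Nd4l/mt-Nd4: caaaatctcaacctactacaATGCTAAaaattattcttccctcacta
mt-Nd5/mt-Nd6: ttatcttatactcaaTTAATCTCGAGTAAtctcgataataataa

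Much of the molecule also has a copy in the nuclear genome, which decides which members can be told apart from their copies. A search of the NCBIM37 nuclear chromosomes found 8 copies of at least 100 bases at 95% identity or more. The longest, 4654 bases at chr1:24618374-24623027 on the minus strand, was 99.936% identical to positions 6390 to 11042 of the mitochondrial DNA and covers all of mt-Co2, mt-Atp8, mt-Atp6, mt-Co3, mt-Nd3 and mt-Nd4l. Only 3 differences separate it from the mitochondrial sequence: A6393T in mt-Co1, T9461C in mt-Nd3 and a 1-base gap at position 9820 in mt-Tr, with positions counted from 1 at the start of the mitochondrial reference and the mitochondrial base first. The 51 bases around the difference in mt-Nd3 are shown for the mitochondrial DNA (chrM:9436-9486, plus strand) and for the copy (chr1:24619931-24619981, minus strand), with the differing base in capitals.

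mtDNA at 9461: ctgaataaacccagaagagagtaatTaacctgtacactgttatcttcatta
copy of 9461: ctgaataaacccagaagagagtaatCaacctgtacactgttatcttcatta

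Of all 100-base windows, the length of the reads, 100% of those in mt-Co2, mt-Atp8, mt-Atp6, mt-Co3 and mt-Nd4l occurred unchanged in the nuclear genome. The share was 98.8% for mt-Nd3, 60.8% for mt-Nd4, 30.8% for mt-Co1, 3.19% for mt-Nd2 and 1.21% for mt-Rnr2. No window of mt-Nd1, mt-Nd5, mt-Nd6, mt-Cytb or mt-Rnr1 occurred there, so the reads of these genes had no exact nuclear match. The aligner's handling of reads with several matches is not given in the sources used here.

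Genes annotated in the chromosome 1 copy held a large share of the fragments beside mt-Atp6 and mt-Nd4l. Gm10925, at chr1:24620814-24621627, spans nearly all of the copy of mt-Atp6 and also most of that of mt-Atp8. It was at 954 to 1328 scaled FPKM, above the 568 to 787 of mt-Atp6 itself. It held 64.8 to 66.1% of the fragments counted for Gm10925 and mt-Atp6 together. Fragments from its mt-Atp8 stretch were not separated. Gm10222, annotated in the copy of mt-Nd4l, was at 53.1 to 94.1 scaled FPKM against 21.4 to 40.8 for mt-Nd4l and held 69.0 to 74.0%. The split hardly moved between lines: all 10 libraries lay within these narrow ranges. The other 3 genes, all annotated in a 97.362% identical copy on chromosome 2, held less. Gm13341 held 6.01 to 7.52% of the fragments it shared with mt-Co2, Gm13340 held 1.02 to 1.93% beside mt-Co1 and Gm13339 held 0.661 to 1.33% beside mt-Nd2. The levels of mt-Atp6 and mt-Nd4l are thus levels of the fragments that were assigned to them. The same limit holds for mt-Co2, mt-Co3, mt-Atp8 and mt-Nd3, and in part for mt-Nd4 and mt-Co1, whose windows also occur in the nuclear genome. Among the genes listed, only Gm10925 and Gm10222 lie in the chromosome 1 copy. Fragments placed elsewhere in it could not be added back. Comparisons between lines were repeated with the fragments of Gm10925, Gm10222 and Gm13341 added back.

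**Figure D1:**
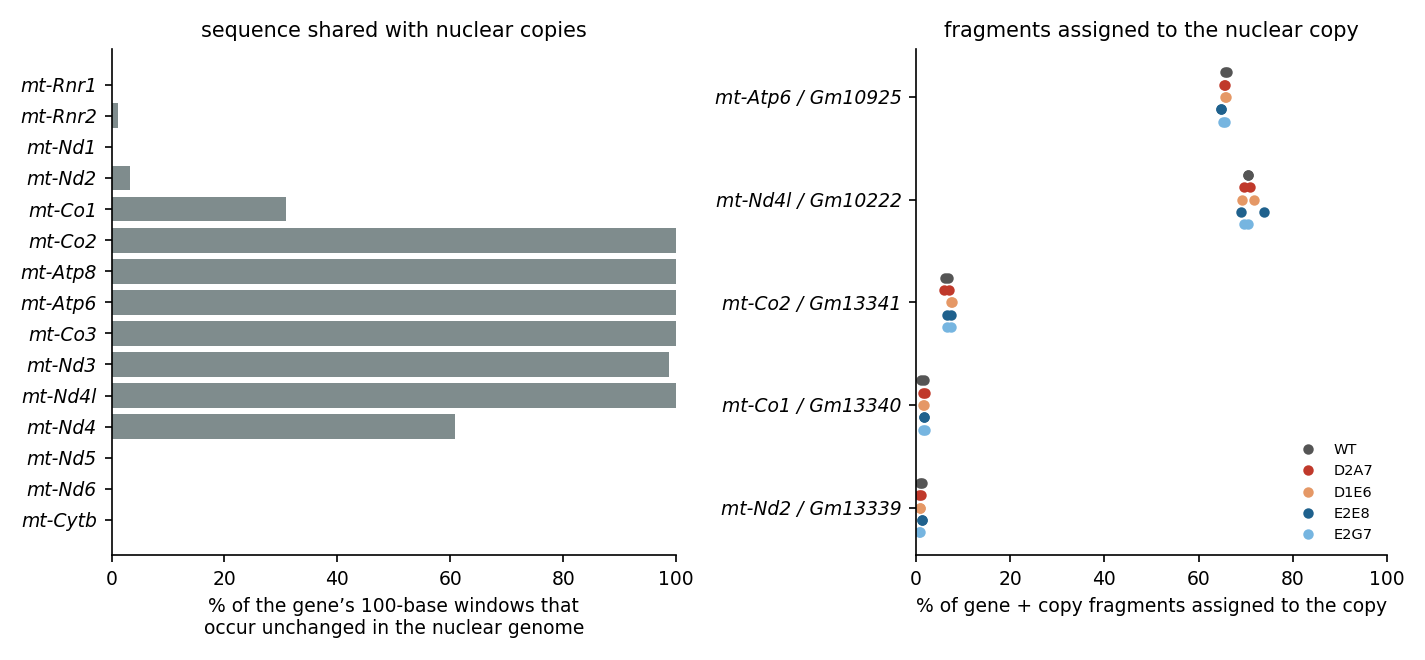
Left: share of the 100-base windows of each rRNA and coding gene that occur unchanged in the nuclear genome (%, bars, genes in genome order). Right: share of the fragments of a gene and its nuclear copy that were assigned to the copy (%), with each point 1 library coloured by line. The copy held 64.8 to 66.1% for mt-Atp6 and 69.0 to 74.0% for mt-Nd4l in every library, and at most 7.52% for the other pairs. Gm10925, set beside mt-Atp6, also spans most of the copy of mt-Atp8.

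Counted by the fragments assigned to them, the 13 coding genes spanned 119.9-fold in level between the highest and the lowest mean. Gm10925 held 64.8 to 66.1% of the fragments beside mt-Atp6, and Gm10222 held 69.0 to 74.0% beside mt-Nd4l. The places of mt-Atp6 and mt-Nd4l in the order below, and the span, therefore depend on how fragments were assigned. The genes of complex IV, cytochrome c oxidase, stood highest: mt-Co1 averaged 3616 scaled FPKM over the 10 libraries, mt-Co3 2922 and mt-Co2 1791, and these 3 genes made up 68.9% of the summed coding level. The complex I genes mt-Nd1 (1087) and mt-Nd3 (862) came next, followed by mt-Atp6 (659), mt-Cytb (544), which encodes the complex III subunit cytochrome b, and mt-Atp8 (187). The remaining complex I genes were lowest, with mt-Nd2 at 147, mt-Nd5 at 106, mt-Nd4 at 90.8, mt-Nd6 at 39.55 and mt-Nd4l at 30.2. mt-Nd6 is the 1 coding gene on the minus strand. Of the 12 neighbouring pairs in this order, 11 kept their order in all 10 libraries, and mt-Nd3 exceeded mt-Atp6 in 9 of 10. The ranges over all libraries kept apart for 3 pairs, mt-Co3 over mt-Co2, mt-Cytb over mt-Atp8 and mt-Nd4 over mt-Nd6, and overlapped for the other 9.

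**Figure D2:**
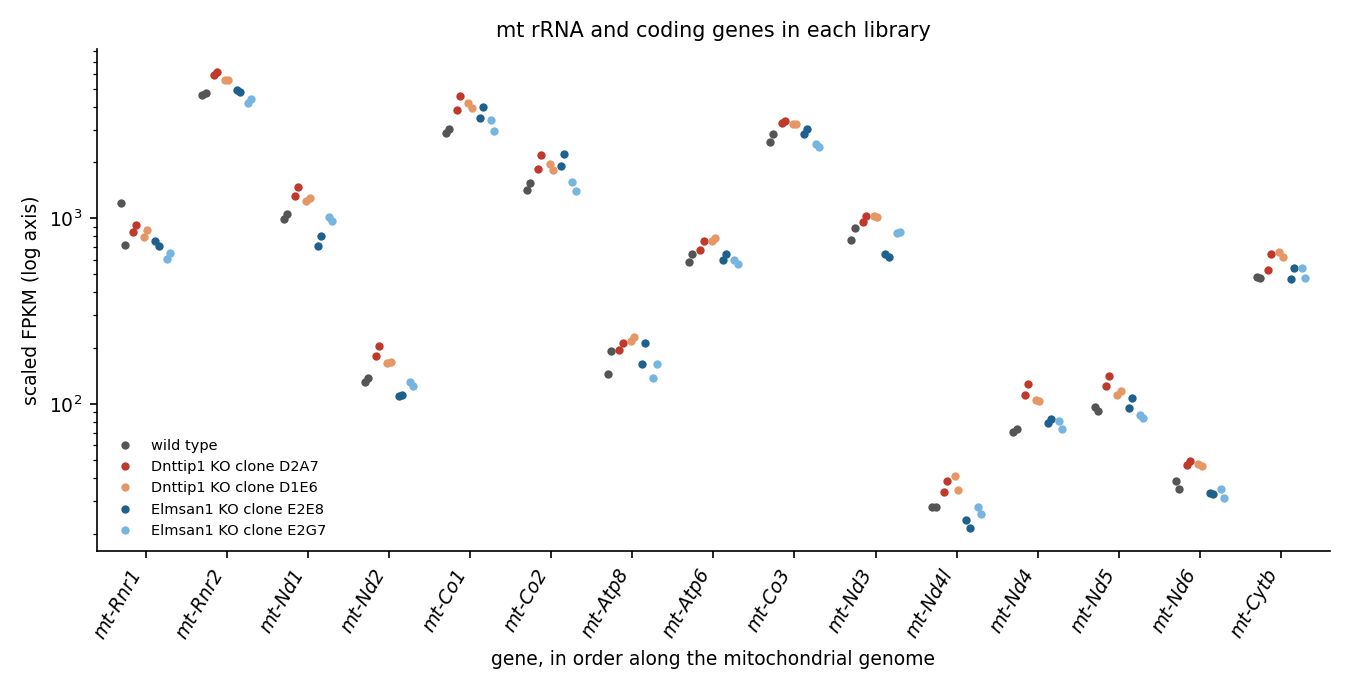
Scaled FPKM (log axis) of the 2 rRNA and 13 coding genes in genome order, with each point 1 library coloured by line. The order of the genes was nearly the same in every library, the Dnttip1 KO points lie above both WT points for each coding gene, and mt-Rnr1 in WT replicate 1 (1213) stands above every other library.

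Comparing Dnttip1 KO with WT mESCs asked whether the loss of this MiDAC scaffold changed the mitochondrial transcripts. Every coding gene was higher in all 4 Dnttip1 KO libraries than in both WT libraries, by 1.205-fold to 1.56-fold. Of all 17434 genes tested, 21.1% showed such a complete separation upwards. The median log2 fold change of the 13 genes was 0.38, against 0.02 over all genes tested. The median log2 fold changes by complex were 0.39 for the 7 complex I genes, 0.34 for mt-Cytb, 0.40 for the 3 complex IV genes and 0.31 for the 2 complex V genes. The summed coding level was 10188 and 11040 scaled FPKM in WT, 13084 and 14767 in D2A7 and 13741 and 13371 in D1E6. As a share of all fragments, the coding genes took 0.970 and 1.08% in WT, and 1.30 to 1.49% in the Dnttip1 KO libraries. The WT libraries also stood apart in AY036118, a gene that overlaps rRNA sequence and was listed as a sign of rRNA carry-over, at 36979 and 2378 scaled FPKM against 9.43 to 118 in the KO libraries. Its part in this difference was not tested, and both WT libraries were high in it, so leaving out 1 of them cannot test it. As a check on single libraries only, the median log2 fold change of the coding genes lay between 0.34 and 0.40 with any 1 library left out. In bulk RNA, a higher level in each cell and a larger share of cells with a high level cannot be told apart.

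The gene with the largest difference was mt-Nd4, a core subunit of complex I. It was at 70.2 and 73.0 scaled FPKM in WT, 112 and 128 in D2A7 and 105 and 104 in D1E6, with a wide gap between the groups. The log2 fold change was 0.64 ± 0.093 (SE; limma adjusted p = 0.0156), and mt-Nd4 was the 1 coding gene called; 3.26% of all genes were called higher in this comparison. The call rested on D2A7 replicate 2, since the log2 fold change without it was 0.58, just under the 1.5-fold limit.

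Besides mt-Nd4, 3 other complex I genes had an adjusted p under 0.05 and rose: mt-Nd6 by 0.38 ± 0.057 on the log2 scale (SE; limma adjusted p = 0.0164), mt-Nd4l by 0.40 ± 0.089 (0.0446) and mt-Nd2 by 0.42 ± 0.095 (0.0473). This made 4 of 13 coding genes, beside 5.19% of all genes. The other 9 had log2 fold changes between 0.27 for mt-Co3 and 0.48 for mt-Co1 with adjusted p from 0.0517 to 0.132, and all 13 had an unadjusted p under 0.05. The count fell to 2 without D1E6 replicate 1 or without D1E6 replicate 2, and to 0 without either WT library. With an estimated correlation of 0.704 between the libraries of a clone, 0 of 13 had an adjusted p under 0.05, against 57 of all genes.

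In some lines the coding genes moved together between replicates. The median difference between replicates over the 13 genes was -0.18 in D2A7 on the log2 scale (replicate 1 minus replicate 2), -0.10 in E2E8, -0.08 in WT, 0.08 in E2G7 and 0.01 in D1E6. The median SD between replicates was 0.128 for coding genes in D2A7, against 0.0439 over all genes, but 0.0451 in D1E6, against 0.0359. The 13 genes share their libraries and precursor RNAs, and no p-value is given for them as a group.

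Both Dnttip1 KO clones showed the same picture when compared with WT one at a time, with the error shared over all 10 libraries. These comparisons use the same WT libraries. In D2A7, 11 of 13 coding genes rose with an adjusted p under 0.05, beside 28.6% of all genes, and in D1E6 12 of 13 did, beside 21.4%. The exceptions were mt-Atp8 (0.28 ± 0.16, SE; limma adjusted p = 0.176) and mt-Cytb (0.28 ± 0.11; 0.0575) in D2A7 and mt-Atp8 (0.42 ± 0.16; 0.0697) in D1E6. mt-Nd4 had the largest log2 fold change in each, 0.74 ± 0.071 in D2A7 and 0.54 ± 0.071 in D1E6, and was called in D2A7, where 11.3% of all genes were called higher. In D1E6 0 of 13 were called, beside 5.33% of all genes, and all 13 had an unadjusted p under 0.05. Every coding gene lay above both WT libraries in both libraries of each clone, as did 40.3% of all genes in D2A7 and 34.2% in D1E6. The medians were 0.40 and 0.36. In D2A7 the count of 11 was 7 without WT replicate 1 and 5 without D2A7 replicate 2, while 4 genes were called without D2A7 replicate 1. In D1E6 the count of 12 was 7 without WT replicate 1 and without either D1E6 library, and 1 gene was called without WT replicate 2.

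The clones differed from each other in 2 coding genes. mt-Nd2 was higher in D2A7 (182 and 206 scaled FPKM) than in D1E6 (167 and 169), by 0.20 ± 0.060 on the log2 scale (SE; limma adjusted p = 0.026). mt-Nd5 was at 125 and 142 in D2A7 and at 112 and 117 in D1E6, a difference of 0.22 ± 0.075 (0.0467). This share, 2 of 13, lay beside 26% of all genes that were higher in D2A7 with an adjusted p under 0.05. It fell to 1 without either WT library and to 0 without D2A7 replicate 2 or either D1E6 library.

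**Figure D3:**
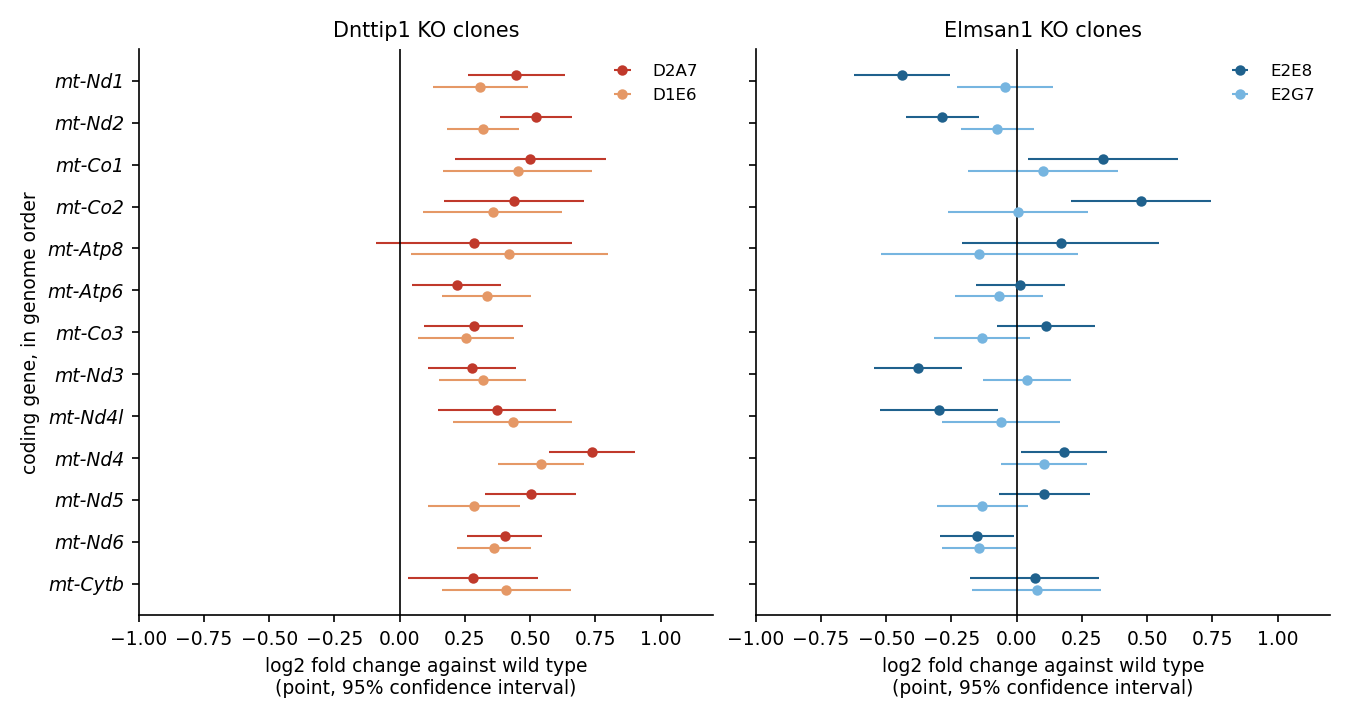
Log2 fold change of the 13 coding genes against WT in each Dnttip1 KO clone (left) and each Elmsan1 KO clone (right), with points for the estimate from 2 against 2 libraries and lines for the limma 95% confidence interval. Every Dnttip1 KO point lies above 0, while the E2E8 points spread from -0.44 for mt-Nd1 to 0.48 for mt-Co2 and the E2G7 points lie between -0.14 and 0.11.

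In Elmsan1 KO mESCs the coding genes showed no common direction. The median log2 fold change was -0.01 (0.00 over all genes), 5 of the 13 genes were above 0, and the values ran from -0.24 for mt-Nd1 to 0.24 for mt-Co2. By limma, 0 of 13 were called, 0 had an adjusted p under 0.05 and 0 had an unadjusted p under 0.05, where 2.74% of all genes were called higher and 3.68% lower, and 5.62% were higher and 4.91% lower with an adjusted p under 0.05. With voom on the recovered fragments 0 had an adjusted p under 0.05, and with all 10 libraries in 1 fit 2 did. For 0 of 13 did all 4 Elmsan1 KO libraries lie above WT, beside 21.3% of all genes, and for 0 of 13 below, beside 21.8%.

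In clone E2E8 compared with WT, 4 complex I genes fell and 1 complex IV gene rose, each with an adjusted p under 0.05. These were 4 of 13 lower, beside 25.9% of all genes, and 1 of 13 higher, beside 29.3%, so the share of coding genes that passed was near the background for lower and below it for higher genes. None reached the 1.5-fold limit.

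mt-Nd1, the first coding gene of the plus-strand precursor, was at 994 and 1051 scaled FPKM in WT and 708 and 802 in E2E8, but 1014 and 968 in E2G7. Its log2 fold change in E2E8 was -0.44 ± 0.079 (SE; limma adjusted p = 0.00225). mt-Nd3 was at 762 and 883 in WT, 639 and 623 in E2E8 and 838 and 846 in E2G7, and fell by 0.38 ± 0.072 on the log2 scale in E2E8 (0.00307). mt-Nd2 was at 131 and 139 in WT, 110 and 111 in E2E8 and 131 and 125 in E2G7, and fell by 0.28 ± 0.060 (0.00474). mt-Nd4l was at 27.8 and 27.7 in WT and 23.8 and 21.4 in E2E8, and fell by 0.30 ± 0.098 (0.0327). mt-Co2, a catalytic subunit of cytochrome c oxidase, went the other way: it was at 1416 and 1551 in WT, 1917 and 2216 in E2E8 and 1572 and 1407 in E2G7, and rose by 0.48 ± 0.12 in E2E8 (0.00916). The count of 5 fell to 3 without E2E8 replicate 2 and was 8 with voom on the recovered fragments.

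The other complex I genes did not pass the test in E2E8. mt-Nd4 had a log2 fold change of 0.18 ± 0.071 (SE; limma adjusted p = 0.0617), mt-Nd5 of 0.11 ± 0.075 (0.265) and mt-Nd6 of -0.15 ± 0.061 (0.0658). Among the genes of the other complexes, mt-Co1 had 0.33 ± 0.12 (0.0529), mt-Co3 0.11 ± 0.081 (0.268), mt-Cytb 0.07 ± 0.11 (0.612), mt-Atp6 0.01 ± 0.073 (0.887) and mt-Atp8 0.17 ± 0.16 (0.41).

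As a share of the summed coding FPKM of a library, mt-Nd1 took 6.36 and 6.48% in E2E8 and 9.05 to 10.1% in the 8 libraries of the other lines. The share of mt-Nd3 was 5.74 and 5.03% in E2E8 and 6.99 to 8.35% elsewhere. mt-Co2 took 17.2 and 17.9% in E2E8 and 13.7 to 14.9% elsewhere. For these genes the E2E8 libraries thus lay outside the range of all other libraries, WT and KO alike. The shares of mt-Nd2, mt-Nd4l and mt-Nd6 also lay below that range. The share of mt-Co1 lay above it, at 31.1 and 32.1% in E2E8 and 27.4 to 30.9% elsewhere. How many of all genes set E2E8 apart from the other lines was not counted. The shares of a library sum to a fixed total and are given as a description, with no test; an exact two-sided permutation test of 2 libraries against 2 cannot give a p below 0.333.

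**Figure D4:**
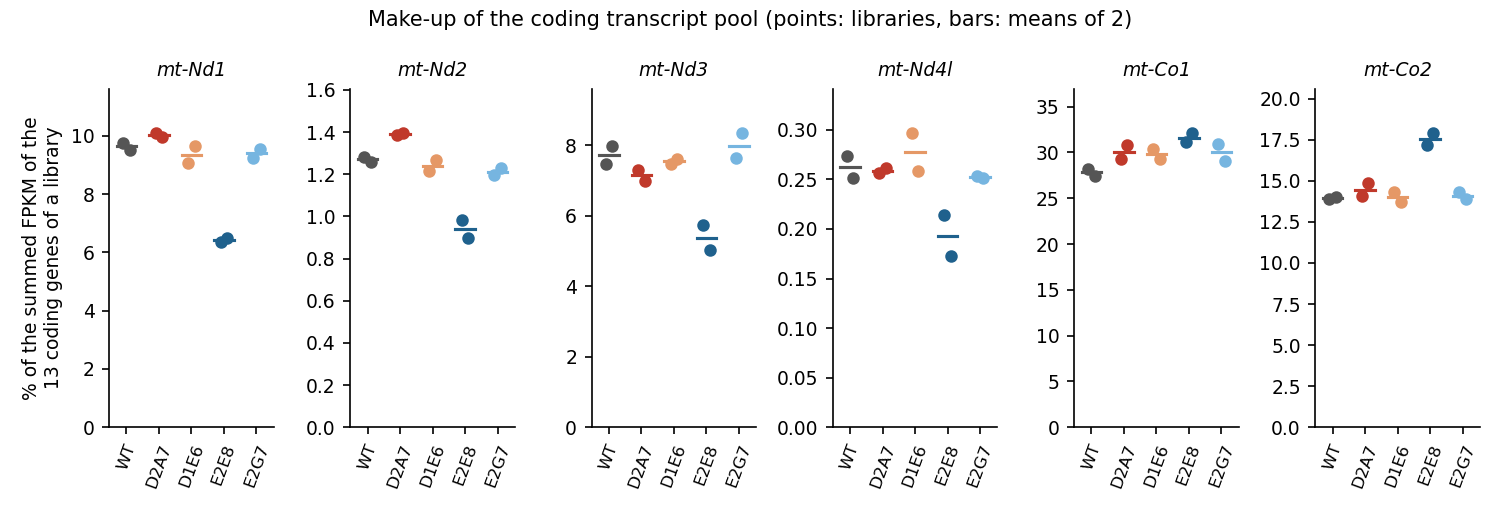
Share of 6 coding genes in the summed FPKM of the 13 coding genes of a library (%), with points for libraries, bars for the mean of 2 libraries and axes that start at 0. In E2E8 the shares of mt-Nd1, mt-Nd2, mt-Nd3 and mt-Nd4l lie below and those of mt-Co1 and mt-Co2 above all libraries of the other lines.

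The difference between the Elmsan1 KO clones was tested directly. mt-Nd3 (-0.42 ± 0.072, SE; limma adjusted p = 0.00219), mt-Nd1 (-0.40 ± 0.079; 0.00429) and mt-Nd2 (-0.21 ± 0.060; 0.0204) were lower in E2E8 than in E2G7. mt-Co2 (0.47 ± 0.11; 0.0106), mt-Nd5 (0.24 ± 0.075; 0.0307) and mt-Co3 (0.25 ± 0.079; 0.0322) were higher. That was 3 of 13 in each direction, beside 21.7% of all genes lower and 29% higher. The count of 6 was 2 without E2E8 replicate 2 and 3 without either E2G7 library. In E2G7 against WT, 0 of 13 had an adjusted p under 0.05 by limma, beside 19.8% of all genes higher and 22% lower, 1 had an unadjusted p under 0.05, and 1 had an adjusted p under 0.05 with voom, without WT replicate 2 and without E2G7 replicate 1.

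The nuclear copies were tested as genes of their own. Gm13341, the copy of mt-Co2, rose in E2E8 by 0.59 ± 0.080 on the log2 scale (SE; limma adjusted p = 0.000525) and was called. Gm10222, the copy of mt-Nd4l, rose in Dnttip1 KO by 0.40 ± 0.085 (0.0411), beside 0.40 for mt-Nd4l itself. Gm10925, which spans the copy of mt-Atp6 and most of that of mt-Atp8, had a log2 fold change of 0.26 ± 0.089 in Dnttip1 KO (0.128), beside 0.28 for mt-Atp6. Gm13340, the copy of mt-Co1, was at 29.6 and 48.3 scaled FPKM in WT and between 49.3 and 75.2 in the KO libraries, and was called higher in Dnttip1 KO (0.80 ± 0.20; 0.0602). Gm13339 was at 1.78 to 4.16 scaled FPKM. An alternative chosen after seeing the data added the fragments of Gm10925, Gm10222 and Gm13341 back to mt-Atp6, mt-Nd4l and mt-Co2. All fragments of Gm10925 went to mt-Atp6, those of its mt-Atp8 stretch included. The count of coding genes with an adjusted p under 0.05 by limma was then 4 in Dnttip1 KO, 10 in D2A7, 12 in D1E6, 4 in E2E8 and 0 in E2G7.

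The rRNA genes mt-Rnr1 (12S) and mt-Rnr2 (16S) provide the RNA of the mitochondrial ribosome. Both lie at the start of the plus-strand precursor, at chrM:70-1024 and chrM:1094-2675. The libraries were made from total RNA with a kit that depletes rRNA, the mitochondrial ones included, so their levels show what depletion left. mt-Rnr2 was at 4594 and 4722 scaled FPKM in WT, 5893 and 6140 in D2A7, 5531 and 5582 in D1E6, 4915 and 4801 in E2E8 and 4209 and 4380 in E2G7. All Dnttip1 KO libraries lay above WT, as they did for 21.1% of all genes, with a log2 fold change of 0.31 ± 0.11 (SE; limma adjusted p = 0.132). In the single clones mt-Rnr2 rose with an adjusted p of 0.0107 in D2A7 (0.37 ± 0.091) and 0.0461 in D1E6 (0.25 ± 0.087), by limma. Of all genes, 28.6% were higher with an adjusted p under 0.05 in D2A7 and 21.4% in D1E6. The log2 fold change of mt-Rnr2 was 0.06 ± 0.089 in E2E8 and -0.12 ± 0.087 in E2G7.

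The level of mt-Rnr1 varied most within WT. It was at 1213 and 720 scaled FPKM in WT, and the other 8 libraries lay between 605 and 925. The ratio of mt-Rnr2 to mt-Rnr1 was 3.79 in WT replicate 1 and 6.445 to 6.97 in the other 9 libraries. WT replicate 1 was also the library with the highest AY036118 level, 36979 scaled FPKM, and the part of this in the level of mt-Rnr1 was not tested. The log2 fold change of mt-Rnr1 was -0.13 ± 0.20 in Dnttip1 KO (SE; limma adjusted p = 0.727) and -0.46 ± 0.21 in Elmsan1 KO (0.209). Without WT replicate 1 the Dnttip1 KO value turned to 0.25, and without WT replicate 2 it was -0.50. Neither rRNA gene was called in any of the 8 comparisons with all libraries. Without WT replicate 2, mt-Rnr1 was called lower in Elmsan1 KO (-0.84), E2E8 (-0.73) and E2G7 (-0.95), while without WT replicate 1 the E2E8 value turned to 0.02.

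The tRNA genes, 59 to 75 bases long, are shorter than the reads, and in these libraries few fragments were counted on them. They held 5065 fragments in all 10 libraries together. Of the 22 genes, 11 were at 0 fragments in every library, which allows a level of up to 0.0347 to 0.0965 CPM in a library (3 fragments, counting error only). mt-Tn had 2 fragments in all, and the other 10 genes had 30 or more. The highest were mt-Tw for tryptophan with 2085 fragments, mt-Tp for proline with 1372 and mt-Tt for threonine with 627. These 3 genes are shown with mt-Tf, a gene without fragments, and with mt-Ta for alanine, written 5′ to 3′ on the strand of the gene with the anticodon in capitals.

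mt-Tw: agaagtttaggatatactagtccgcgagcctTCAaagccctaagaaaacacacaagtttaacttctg
mt-Tp: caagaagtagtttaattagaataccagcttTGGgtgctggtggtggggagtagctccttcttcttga
mt-Tt: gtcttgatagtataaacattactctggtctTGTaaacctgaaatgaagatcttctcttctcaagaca
mt-Tf: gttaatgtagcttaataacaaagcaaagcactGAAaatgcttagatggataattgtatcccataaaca
mt-Ta: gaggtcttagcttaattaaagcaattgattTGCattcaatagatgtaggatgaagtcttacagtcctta

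mt-Tw lies at chrM:4950-5016 on the plus strand, where the next gene on that strand starts 311 bases on. mt-Tp (chrM:15356-15422), beside the control region, and mt-Ta (chrM:5018-5086) lie on the minus strand. mt-Tt (chrM:15289-15355) and mt-Tf (chrM:1-68, at the first base of the reference) lie on the plus strand. The tRNA genes that had fragments were those with room beside them. Of the 11 tRNA genes with a gap of at least 70 bases to a neighbour on the same strand, 10 had 30 or more fragments, and mt-Tf was the exception. Of the 11 with smaller gaps, 10 had no fragment and mt-Tn had 2. The limit of 70 bases was set after the counts were seen, and it is tight: mt-Td, with a gap of 69 bases, had no fragment, while mt-Ti and mt-Tm, with 70, had 142 and 105. On the minus strand, which carries few genes, 7 of 8 tRNA genes had fragments, and on the plus strand 4 of 14 did. How the counting treated fragments that touch 2 genes is not given in the sources used here, and its part in the tRNA counts was not tested.

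**Figure D5:**
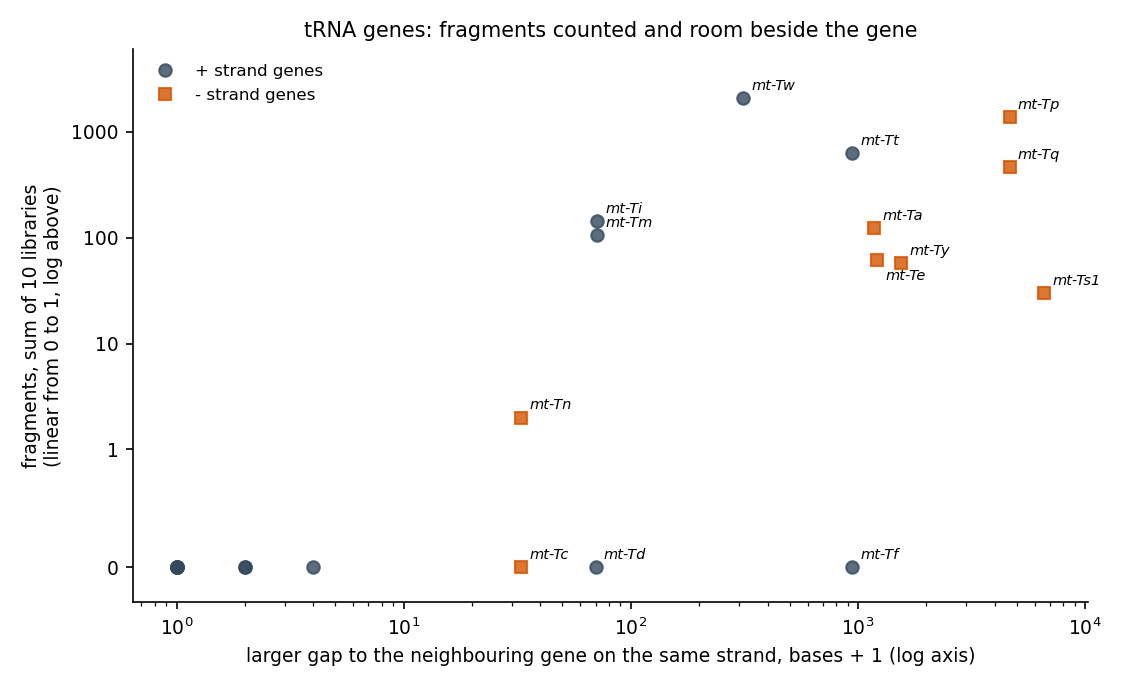
Fragments counted for each of the 22 tRNA genes over 10 libraries (linear from 0 to 1, log above) against the larger gap to a neighbouring gene on the same strand (bases + 1, log axis), with circles for plus-strand and squares for minus-strand genes. The 10 genes with 30 or more fragments all have a gap of at least 70 bases, and the genes at 0 sit at gaps under 70 bases apart from mt-Tf.

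The gap between mt-Tn and mt-Tc on the minus strand holds the origin of light-strand replication, which folds into a hairpin. The 32 bases between the genes are in capitals in the stretch chrM:5150-5201, written on the plus strand. With 32 bases on that side and 2 on the other, mt-Tc had 0 fragments and mt-Tn had 2, the lowest count above 0.

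mt-Tn/mt-Tc gap: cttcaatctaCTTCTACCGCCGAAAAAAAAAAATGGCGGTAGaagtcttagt

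At these counts few differences between lines could be seen. In the pooled comparisons 0 tRNA genes were called by limma or had an adjusted p under 0.05, of 10 tested in Dnttip1 KO and 11 in Elmsan1 KO. Of all genes, 3.26% were called higher and 3.25% lower in Dnttip1 KO, and 2.74% and 3.68% in Elmsan1 KO. With an adjusted p under 0.05, 5.19% were higher and 4.28% lower in Dnttip1 KO, and 5.62% and 4.91% in Elmsan1 KO. With all 10 libraries in 1 fit, 1 was called in Elmsan1 KO. The count was 2 in Dnttip1 KO without WT replicate 2, and 1 in Elmsan1 KO without WT replicate 2 or either E2G7 library. mt-Tp was called higher in D2A7: it was at 31.3 and 25.7 scaled FPKM in WT, 47.5 and 50.4 in D2A7, 36.6 and 29.1 in D1E6 and 23.1 to 37.8 in the Elmsan1 KO libraries, a log2 fold change of 0.78 ± 0.22 in D2A7 (SE; limma adjusted p = 0.0174). mt-Ta (0.92, limma adjusted p = 0.0337) and mt-Ti (1.36, 0.0322) also had an adjusted p under 0.05 there. This made 3 of 10 tRNA genes tested higher in D2A7, beside 28.6% of all genes. The mt-Tp call was lost without either WT library, either D2A7 library or either E2E8 library, where the value lay between 0.64 and 0.93. Without WT replicate 2, 2 tRNA genes were called in D2A7 and 1 each in D1E6 and E2G7.

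mt-Ta was at 3.86 and 2.65 scaled FPKM in WT, 7.69 and 4.90 in D2A7, 2.69 and 2.29 in D1E6, 1.52 and 1.07 in E2E8 and 1.62 and 2.51 in E2G7. It was called lower in E2E8 (-1.26 ± 0.30, SE; limma adjusted p = 0.00828) and higher in D2A7 than in D1E6 (1.27 ± 0.30; 0.00991). Behind these values stand 5 to 33 fragments a library. mt-Tq was lower in E2E8 with an adjusted p of 0.0292 by limma (-0.77). With mt-Ta this made 2 of 11 tRNA genes tested lower in E2E8, beside 25.9% of all genes. The mt-Ta call in E2E8 was lost without WT replicate 1, without E2E8 replicate 2 and with voom on the recovered fragments, with log2 fold changes of -0.998, -1.03 and -1.28. The E2E8 count was 2 without WT replicate 2 or E2E8 replicate 1, and without E2G7 replicate 2 the counts in E2G7 against WT and in E2E8 against E2G7 were 1. The clone difference lost its call without D2A7 replicate 1 (0.95) and without D1E6 replicate 2 (1.16). The counts of 1 called tRNA gene lie beside 11.3% of all genes called higher in D2A7, 6.24% called lower in E2E8 and 9.84% called higher in D2A7 against D1E6. mt-Tw was at 41.8 and 53.8 scaled FPKM in WT and 34.9 to 66.7 in the KO libraries, and mt-Tt at 8.46 and 18.3 in WT and 6.66 to 26.4 in the KO libraries.

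The nuclear genes that transcribe, process and maintain mitochondrial DNA and RNA were tested in the same way in the pooled comparisons. Of 55 such genes listed, 53 were found and 52 passed the filter. One was called higher in each KO, beside 3.26% of all genes in Dnttip1 KO and 2.74% in Elmsan1 KO, and 0 were called lower, beside 3.25% and 3.68%. The median log2 fold change of the list was 0.01 in Dnttip1 KO and -0.01 in Elmsan1 KO. With an adjusted p under 0.05, 3 of the 52 were higher and 1 lower in Dnttip1 KO, beside 5.19% and 4.28% of all genes. In Elmsan1 KO 5 were higher and 3 lower, beside 5.62% and 4.91%. The gene lower in Dnttip1 KO was Pnpt1, a polynucleotide phosphorylase in the stability and decay group. Its log2 fold change was -0.52 in Dnttip1 KO (limma adjusted p = 0.00474) and -0.41 in Elmsan1 KO (0.0149).

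The transcription machinery had no gene past either threshold in the pooled comparisons. Polrmt, the RNA polymerase, was at 9.26 and 8.10 scaled FPKM in WT, 9.43 to 10.5 in Dnttip1 KO and 8.67 to 9.805 in Elmsan1 KO. Its log2 fold change was 0.20 in Dnttip1 KO (limma adjusted p = 0.187) and 0.09 in Elmsan1 KO (0.549). All Dnttip1 KO libraries lay above WT, as they did for 21.1% of all genes. Tfam, which packages and helps transcribe mitochondrial DNA, had a log2 fold change of 0.01 in Dnttip1 KO (limma adjusted p = 0.982) and 0.08 in Elmsan1 KO. Tfb2m, the initiation factor, had 0.02 and -0.12. Lrpprc, whose product stabilizes mitochondrial mRNAs together with SLIRP, had 0.00 and -0.11. Slirp, listed as 1810035L17Rik, was at 15.4 and 16.4 scaled FPKM in WT and 12.4 to 15.2 in the KO libraries. It had a log2 fold change of -0.21 in Dnttip1 KO and fell by 0.32 in Elmsan1 KO (limma adjusted p = 0.0209).

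More genes of the list passed an adjusted p of 0.05 in single clones than in the pooled comparisons. In E2E8, 0 of the 9 transcription genes tested were higher and 6 lower, and 3 of the 11 stability and decay genes were higher and 7 lower, beside 29.3% of all genes higher and 25.9% lower. In D2A7 the stability and decay genes gave 1 higher and 5 lower, beside 28.6% of all genes higher and 23.5% lower. Whether the clones differed in these counts was not tested. Lrpprc was at 31.6 and 31.6 scaled FPKM in WT, 25.7 and 25.3 in E2E8 and 33.7 and 33.7 in E2G7. It fell by 0.31 ± 0.036 on the log2 scale in E2E8 (SE; limma adjusted p = 0.000273) and differed by -0.40 ± 0.036 between E2E8 and E2G7 (0.000106). Tfb2m was at 6.07 and 5.91 in WT, 5.00 and 4.68 in E2E8 and 6.30 and 6.19 in E2G7, and fell by 0.30 ± 0.060 in E2E8 (0.00373). Neither reached the 1.5-fold limit.

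The gene called in both KOs was Tk2, the mitochondrial thymidine kinase that supplies precursors for mitochondrial DNA. It was at 7.90 and 8.08 scaled FPKM in WT, 11.9 to 12.97 in the Dnttip1 KO libraries, 15.2 and 14.7 in E2E8 and 11.4 and 11.9 in E2G7, above WT in every KO library. The log2 fold change was 0.61 ± 0.058 in Dnttip1 KO (SE; limma adjusted p = 0.00526) and 0.72 ± 0.13 in Elmsan1 KO (0.0238), against the same WT libraries. The Elmsan1 KO call was lost without WT replicate 1 (0.70) and without WT replicate 2 (0.73), and the Dnttip1 KO value was just under the 1.5-fold limit with a pseudocount of 1 (0.56) or quantile normalization (0.58). In E2E8, 4 of the 10 mitochondrial DNA maintenance genes tested were called higher, beside 10.7% of all genes, and 3 of them were named after their values were seen. Besides Tk2 these were Primpol, a primase and polymerase listed as Ccdc111 (1.07 ± 0.051), Slc25a33, a carrier of pyrimidine nucleotides (0.68 ± 0.060), and Dguok, the mitochondrial deoxyguanosine kinase (0.66 ± 0.087). Their part in the levels of the mitochondrial transcripts was not tested.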

How the data were processed

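Total RNA of 10 libraries was depleted of cytoplasmic and mitochondrial rRNA and sequenced as stranded paired-end reads; the instrument of each library is not given in the sources used here. The authors mapped reads to mouse NCBIM37 (mm9), counted genes with HTSeq and deposited FPKM values, with no counts. The authors ran their own tests with edgeR 3.16.5 and limma in R 3.3.1. Fragments were recovered by multiplying each FPKM value by exon length and dividing by the estimated value of 1 fragment in that library. Of the nonzero values under 100 fragments, for genes with a matched length, 98.1 to 98.4% were whole (tolerance 0.02). These fragments give the depths and the voom alternative. From the deposited FPKM, libraries were scaled by the median ratio over 11270 genes, a gene was kept where 2 or more of the compared libraries reached 0.1 FPKM, and log2(FPKM + 0.1) was tested with limma 3.58.1 (R 4.3.3) with a variance trend and Benjamini-Hochberg adjustment, so that fold changes of low genes are understated. Pooled KO comparisons used 4 KO and 2 WT libraries; single clones were contrasts in 1 fit of all 10. Confidence intervals come from the limma SE and cover the spread between libraries. Limits for counts of 0 cover counting error only. Nuclear copies were found with BLAST+ 2.17.0, and sequences and positions come from NCBIM37. The fit was tested on simulated data.

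All coding and rRNA genes are named, with tRNA genes called in any comparison or among the 3 highest, 5 transcription and stability genes, and nuclear genes called in a pooled comparison. The genes mt-Ti, mt-Tq, mt-Tn, mt-Tf and Pnpt1 were chosen after their values were seen. The members and gene lists were chosen with earlier results of these data known. Alternatives covered pseudocounts, filters, scaling, the variance trend, voom, correlated libraries of a clone, the samples in a fit, a replicate block, the call rule and leaving out each library.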

Additional observations from a re-analysis of the deposited data

Results flagged for a closer look

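Of 51 groups of 4 libraries looked at, 2 held a library that stood far from the other 3; chance alone gives such a library in about 1 group in 20. mt-Tw was at 51.4 scaled FPKM in D1E6 replicate 1, against 64.6 to 66.7 in the other Dnttip1 KO libraries. mt-Tn was at 0.185 scaled FPKM in E2E8 replicate 1, which is 1 fragment, and at 0 in the other Elmsan1 KO libraries.

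Clones of the same KO differed in 9 tests of the difference itself (limma adjusted p under 0.05). Between D2A7 and D1E6 these were mt-Nd2 (log2 difference 0.20), mt-Nd5 (0.22) and mt-Ta (1.27). Between E2E8 and E2G7 they were mt-Nd1 (-0.40), mt-Nd2 (-0.21), mt-Nd3 (-0.42), mt-Co2 (0.47), mt-Co3 (0.25) and mt-Nd5 (0.24). Of the 13 coding genes this is 2 higher in D2A7, beside 26% of all genes, and 3 lower and 3 higher in E2E8, beside 21.7% and 29%; these shares of the coding genes are near or below those of all genes. The reason for these differences was not tested.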

How the results depend on the processing

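The median log2 fold change of the coding genes moved by less than the spread between replicates under every alternative run; leaving out 1 library gave 0.34 to 0.40 in Dnttip1 KO, 0.31 to 0.48 in D2A7 and 0.29 to 0.41 in D1E6. The count of coding genes with an adjusted p under 0.05 depended more on the settings; the cause was not tested. In Dnttip1 KO, where it was 4, it was 7 with a mean of at least 1 FPKM or FPKM as deposited, 2 with no filter, 12 with all 10 libraries in 1 fit, 0 with libraries of a clone correlated and 0 to 4 with 1 library left out. In Elmsan1 KO it was 2 with all 10 libraries in 1 fit. With voom it was 8 in E2E8, 1 in E2G7 and 4 in D2A7 against D1E6. In that last comparison it was 1 with no filter or no variance trend, and 0 with FPKM as deposited or only the 4 libraries compared. With 1 library left out it was 5 to 12 in D2A7, 7 to 12 in D1E6, 3 to 7 in E2E8, 0 to 1 in E2G7, 0 to 3 in D2A7 against D1E6 and 2 to 6 in E2E8 against E2G7.

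Called coding genes numbered 0 to 1 in Dnttip1 KO, 1 to 4 in D2A7 and 0 to 1 in D1E6 with 1 library left out. Called tRNA genes numbered 0 to 2 in Dnttip1 KO, D2A7 and E2E8 and 0 to 1 in each other comparison. They were 1 in Elmsan1 KO with all 10 libraries in 1 fit. In D2A7 they were 0 with no variance trend and 3 when the call used the adjusted p. In E2E8 they were 0 with voom, and 2 with only the 4 libraries compared or the adjusted p. They were 2 in D2A7 against D1E6 with voom and 2 in E2E8 against E2G7 with only the 4 libraries. The nuclear list had 1 call in place of 2, over both KOs, with a pseudocount of 1 or quantile normalization.

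Some directions reversed. With quantile normalization they were Tfam (-0.011), Tfb2m (-0.011) and Lrpprc (-0.025) in Dnttip1 KO, mt-Rnr2 in Elmsan1 KO (0.040) and E2G7 (0.083), and mt-Atp6 in E2E8 (-0.010). With voom they were Tfam (-0.00087) and Lrpprc (-0.0047) in Dnttip1 KO, mt-Atp8 in Elmsan1 KO (-0.017) and mt-Co2 in E2G7 (-0.0017). With FPKM as deposited they were mt-Co3 (0.014) and mt-Nd5 (0.011) in Elmsan1 KO, and with nuclear copies added, an alternative chosen after seeing the data, mt-Atp6 in E2E8 (-0.033). With 1 library left out, mt-Rnr1 ranged from -0.50 to 0.25 in Dnttip1 KO, -0.45 to 0.30 in D2A7, -0.55 to 0.21 in D1E6 and -0.73 to 0.023 in E2E8, and mt-Rnr2 from -0.063 to 0.011 in Elmsan1 KO. mt-Atp6 ranged from -0.090 to 0.038 in Elmsan1 KO and -0.050 to 0.079 in E2E8. mt-Atp8 ranged from -0.19 to 0.22 in Elmsan1 KO, -0.034 to 0.37 in E2E8 and -0.35 to 0.060 in E2G7. The sign also turned for mt-Co3 (-0.085 to 0.067) and mt-Nd5 (-0.083 to 0.038) in Elmsan1 KO, mt-Cytb in E2E8 (-0.022 to 0.16) and E2G7 (-0.014 to 0.17), and mt-Co2 (-0.074 to 0.086), mt-Nd3 (-0.066 to 0.15) and mt-Nd4l (-0.12 to 0.0059) in E2G7. Among nuclear genes these were Tfam (-0.047 to 0.070), Tfb2m (-0.036 to 0.063) and Lrpprc (-0.019 to 0.019) in Dnttip1 KO and Polrmt (-0.0084 to 0.18) in Elmsan1 KO.

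With a replicate block, 1 coding gene had an adjusted p under 0.05 in Dnttip1 KO in place of 4, and no other count moved by over 1.5 times. Deviations of same-numbered libraries correlated between -0.139 and 0.192 over 10 pairs of lines, and same-numbered libraries were not paired in the main tests. A batch that covers whole lines cannot be seen from these correlations. The tRNA genes rest on 210 to 729 fragments a library.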
